A study of Mus musculus with 6 samples.

Results

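Chromatin elements deep inside very long genes were chosen by position alone, as regions of the deposited count matrix that lie wholly within a protein-coding gene spanning at least 200 kb and more than 10 kb from either end of every protein-coding gene. Of 24605 regions in the matrix, 1713 met this rule, and they lay in 423 genes. The RefSeq table of GRCm38.p6, the assembly behind mm10, listed 990 genes of that length among 21900 coding genes. The study concerns the action of palmitate, a saturated fatty acid, on cytotoxic (CD8+) T lymphocytes, which kill infected and malignant cells. The cells were wild-type (WT) and came from the pancreas, spleen and lymph nodes of mice whose age and number the labels do not give. Chromatin was examined after 48 hours with 100 µM palmitate (3 libraries) or in cells labelled Control (3 libraries), with 50000 sorted cells per library. All libraries share a note naming T cell medium with palmitate, and only the titles and treatment labels separate the groups.

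ATAC-seq relies on the Tn5 transposase, which inserts where chromatin is open, and the read count of a region reports how accessible it is. In a pool of cells, fewer cells with an open element and less opening per cell cannot be told apart. Most coding genes are far shorter than the ones studied here, and the large introns of long genes hold many distal elements such as enhancers. Enhancers act over distance, so an element inside a gene need not act on that gene, and each one is named here by its host only as an address. Long host genes of T cells include Foxp1, a forkhead factor that keeps naive T cells quiescent, Bach2, a repressor that restrains effector differentiation, and Prkca, a protein kinase C.

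Depth ran from 2219136 to 3089230 counts in regions per library. Control 2 stood apart from the other libraries: over the members, chi-square divided by its degrees of freedom was 2.22 between Control 2 and Control 1 and 2.12 between Control 2 and Control 3, against 1.19 to 1.51 for the other pairs within a group. Counting noise alone gives values near 1, so no library was counted as a duplicate. All 8 genes of the CD8 T cell list had a region within 1 kb of an end. These had 22.3 to 103 CPM (counts scaled to library size) in control and 19.4 to 109 in palmitate. Of this list only Cd8a and Cd8b1 encode CD8, and the other genes are shared with CD4 T cells. The helper T cell gene Cd4, the B cell genes Cd79a, Cd79b, Ms4a1 and Pax5 and the pancreas gene Cpa1 had none, while the B cell gene Ebf1 had 1. Of the other marker lists, a region was present for 1 of 4 CD4 T cell genes, 2 of 6 myeloid genes, 0 of 3 NK cell genes and 1 of 5 acinar genes. The CD4 T cell gene, Zbtb7b, reached 45.1 CPM in control and 62.2 in palmitate, and the acinar gene, Cela1, 38.8 and 34.6. Both lie within the range of the CD8 T cell list, above Cd8a (26.9 and 27.3) and below Cd8b1 (79.4 and 87.4). Ebf1 and the myeloid genes Itgam and Spi1 had at most 12.9 CPM in control and 15.3 in palmitate.

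Some of the elements are also starts of transcripts that begin far inside the span of their host, and for these RefSeq gives the sequence. Of the members that could be tested, 66 overlapped a 300-base RefSeq window running from 250 bases before to 50 bases after an annotated start. The 7 windows below are shown because the gains and losses at such internal starts fell on windows of different base composition. The first 4 lie under members that were higher in palmitate and the last 3 under members that were lower. These calls are those of the main scaling (TMM factors). With the second scaling described below (trended offsets), no member under the 7 windows passed. Capitals mark matches on either strand to the KLF/SP motif GGGNGGG, bound by Krüppel-like and SP factors at GC-rich promoters, and to the AP-1 motif TGANTCA, bound by the Fos and Jun factors that T cell activation induces. Where matches overlap they form longer capital runs.
Hdac4: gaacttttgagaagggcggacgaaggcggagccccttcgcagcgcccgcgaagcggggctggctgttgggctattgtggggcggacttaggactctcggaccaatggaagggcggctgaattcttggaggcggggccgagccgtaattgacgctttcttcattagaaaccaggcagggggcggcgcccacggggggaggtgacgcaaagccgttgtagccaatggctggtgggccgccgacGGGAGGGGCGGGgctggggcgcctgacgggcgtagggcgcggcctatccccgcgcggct
Rps6ka2: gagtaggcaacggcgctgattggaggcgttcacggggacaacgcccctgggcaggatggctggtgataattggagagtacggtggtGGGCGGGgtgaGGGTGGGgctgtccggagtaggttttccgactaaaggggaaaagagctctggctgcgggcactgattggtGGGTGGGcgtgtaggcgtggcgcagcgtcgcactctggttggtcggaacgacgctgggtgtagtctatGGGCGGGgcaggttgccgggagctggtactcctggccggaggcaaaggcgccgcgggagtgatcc
Stag1: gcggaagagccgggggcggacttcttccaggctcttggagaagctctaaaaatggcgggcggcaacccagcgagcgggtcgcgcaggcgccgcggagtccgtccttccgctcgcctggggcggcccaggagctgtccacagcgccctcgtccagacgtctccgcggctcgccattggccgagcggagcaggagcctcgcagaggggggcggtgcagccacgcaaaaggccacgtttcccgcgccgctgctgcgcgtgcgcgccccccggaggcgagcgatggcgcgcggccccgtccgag
Cdyl: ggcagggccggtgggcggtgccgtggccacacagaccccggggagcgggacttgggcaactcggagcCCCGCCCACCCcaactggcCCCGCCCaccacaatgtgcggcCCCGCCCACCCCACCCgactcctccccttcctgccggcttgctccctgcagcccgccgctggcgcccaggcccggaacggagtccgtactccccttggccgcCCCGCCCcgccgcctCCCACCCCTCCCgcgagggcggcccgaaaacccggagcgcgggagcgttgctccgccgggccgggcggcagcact
Gm29887 in Dock2: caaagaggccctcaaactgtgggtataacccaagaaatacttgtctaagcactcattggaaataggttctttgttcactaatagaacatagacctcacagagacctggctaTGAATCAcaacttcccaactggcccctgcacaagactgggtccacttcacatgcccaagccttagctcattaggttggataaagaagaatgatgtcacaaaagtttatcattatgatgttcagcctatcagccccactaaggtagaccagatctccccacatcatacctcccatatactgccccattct
Gm31083 in Tbc1d5: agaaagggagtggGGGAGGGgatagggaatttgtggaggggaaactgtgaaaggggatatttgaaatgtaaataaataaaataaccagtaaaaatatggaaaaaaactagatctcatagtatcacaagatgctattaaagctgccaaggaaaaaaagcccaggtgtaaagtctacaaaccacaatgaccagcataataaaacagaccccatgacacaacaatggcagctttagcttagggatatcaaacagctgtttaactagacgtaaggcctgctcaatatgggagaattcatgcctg
Dclk1: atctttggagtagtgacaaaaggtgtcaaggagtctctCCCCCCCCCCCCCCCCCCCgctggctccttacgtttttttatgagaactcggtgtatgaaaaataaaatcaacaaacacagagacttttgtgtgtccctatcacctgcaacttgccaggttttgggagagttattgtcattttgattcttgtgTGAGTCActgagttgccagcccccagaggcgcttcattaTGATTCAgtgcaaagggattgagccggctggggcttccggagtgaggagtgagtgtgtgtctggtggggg
The windows are from GRCm38.p6, each written 5′ to 3′ on the strand of its transcript. Hdac4 is chr1:92180292-92180591 (minus strand), Rps6ka2 is chr17:7169865-7170164, Stag1 is chr9:100643198-100643497 and Cdyl is chr13:35741152-35741451. Gm29887 is a noncoding transcript inside Dock2 (chr11:34506705-34507004), Gm31083 is a noncoding transcript inside Tbc1d5 (chr17:50879680-50879979), and the Dclk1 window is chr3:55461478-55461777. All except Hdac4 are on the plus strand. The GC content is 68.0% for Hdac4, 64.7% for Rps6ka2, 73.7% for Stag1 and 78.0% for Cdyl, but 44.3% for Gm29887, 39.3% for Gm31083 and 50.3% for Dclk1. Stag1 holds no match to either motif, although its window has 43 CpG dinucleotides, the most of the 7.

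Accessibility was lower after palmitate at many of these elements and higher at few. Of the 1670 members with enough counts to be tested, 467 (28.0%) were lower and 29 (1.74%) were higher. A call means a Benjamini-Hochberg adjusted p of at most 0.05 over all 24316 tested regions, by edgeR's quasi-likelihood F-test on TMM-scaled libraries. Over all of those regions 12.7% were lower and 11.9% higher. DESeq2 called 215 members lower and 10 higher, where all regions gave 5.08% and 7.76%, and limma-voom called 443 and 26, where all regions gave 11.8% and 11.5%. The median log2 fold change of the tested members was -0.41, against -0.05 over all regions. The other 43 members had too few counts for the test. The labels do not say whether replicates were separate animals or cultures, so every p measures only the spread from library to library, possibly a technical one.

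Separation of the groups showed the same asymmetry. All 3 palmitate libraries lay below all 3 controls at 690 members (41.3%) and above them at 46 (2.75%), where the shares over all tested regions were 21.0% below and 17.9% above. Regions more than 10 kb from gene ends were closer to the members. Inside shorter genes 33.2% lay below and 4.95% above, and between genes 30.0% and 4.51%. The members' own share of each library's counts was 3.09%, 3.24% and 3.09% in the controls and 2.47%, 2.33% and 2.37% in the palmitate libraries. The groups do not overlap, and the palmitate mean was lower by 0.749 percentage points (3.14 ± 0.089% against 2.39 ± 0.0743%, SD, n = 3). The exact permutation p was 0.1, the smallest that 3 against 3 libraries allow, and 0.107 after adjustment over 16 measures of this kind.

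The scaling decides how many elements count as lower. Fold changes followed region strength: the members' median log2 fold change went from -0.66 in the weakest quintile of regions to 0.05 in the strongest. The members are also weak, with a median of 10.8 CPM against 19.3 CPM over all tested regions. Offsets fitted in each library to level the dependence of its counts on strength (trended offsets) left 162 members lower (9.70%) and 22 higher (1.32%), where all tested regions gave 4.17% and 2.3%. The median log2 fold change of the members was then -0.15, against 0.02 over all regions. Of the 467 lower members 158 were lower in both forms, and of the 29 higher ones 15. Without Control 2 the trended counts were 217 lower and 59 higher (6.6% and 3.66% over all regions), and without Control 3 they were 61 and 6 (1.46% and 0.604%).

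**Figure D1:**
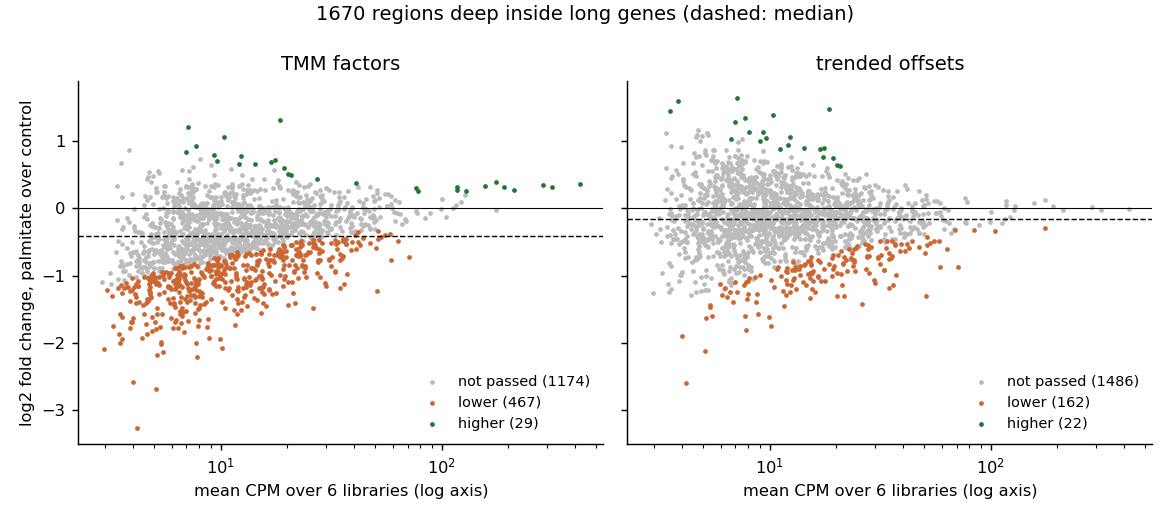
Log2 fold change (palmitate over control) of the 1670 tested members against their mean CPM over 6 libraries on a log axis, with TMM factors on the left and trended offsets on the right. Orange points were lower, green points higher and grey points did not pass; the dashed line is the members' median, at -0.41 on the left and -0.15 on the right.

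Elements of long genes were compared with elements equally far from gene ends in other settings. Of 3862 tested regions deep inside shorter genes, 853 were lower and 91 higher, with a median log2 fold change of -0.28. Of 4258 tested intergenic regions more than 10 kb from a gene end, 815 were lower and 85 higher, with a median of -0.27. The 28.0% of lower members thus stands beside 22.1% and 19.1% in the other groups. With trended offsets the shorter genes had 259 lower and 67 higher (median -0.05) and the intergenic regions 261 and 75 (median -0.03), so that 9.70% of members were lower, against 6.71% and 6.13%.

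Relative to both of these groups, the members' summed counts were lower in every palmitate library than in any control. For each 100 counts deep inside shorter genes, the members had 37.7, 38.5 and 38.2 counts in Controls 1 to 3, against 35.6, 34.6 and 34.9 in Palmitate 1 to 3. For each 100 counts in remote intergenic regions they had 36.5, 36.9 and 36.7 counts in the controls and 34.4, 33.4 and 33.4 in the palmitate libraries. The groups do not overlap in either ratio. With trended offsets the ratio to shorter genes was 37.0, 37.7 and 37.6 in the controls and 36, 35.2 and 35.4 in the palmitate libraries, also without overlap. Each of these differences had an exact permutation p of 0.1 (0.107 adjusted), the smallest possible, so none can pass 0.05 in a design of 6 libraries.

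At matched strength the gap was widest among fairly strong elements. In the quintile of all tested regions from 26.7 to 58.7 CPM, 53 of 186 members were lower (28.5%), against 15.0% of regions deep inside shorter genes and 15.2% of remote intergenic regions. Trended offsets gave 23.7%, 11.2% and 11.7% in that quintile, and these shares were not tested against each other. In the weakest quintile the members had 31.2% lower with TMM but 3.73% with trended offsets. In the strongest quintile, above 58.7 CPM, 12 of 39 members were higher (30.8%) and 3 were lower. Higher calls were as frequent there in the other groups, at 33.0% deep inside shorter genes and 26.5% in remote intergenic regions. Lower calls were 7.69% of members there, against 11.7% and 6.47% in these groups. With trended offsets 7 of the 39 members were lower (17.9%), against 18.4% and 17.1%, and none of the 12 passed as higher. The members' median log2 fold change there went from 0.05 to -0.13. The medians of the other groups turned as well, from 0.13 to -0.05 and from 0.07 to -0.10. The 3 lower with TMM lay inside Adk, Gramd1b and Sik3.

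**Figure D2:**
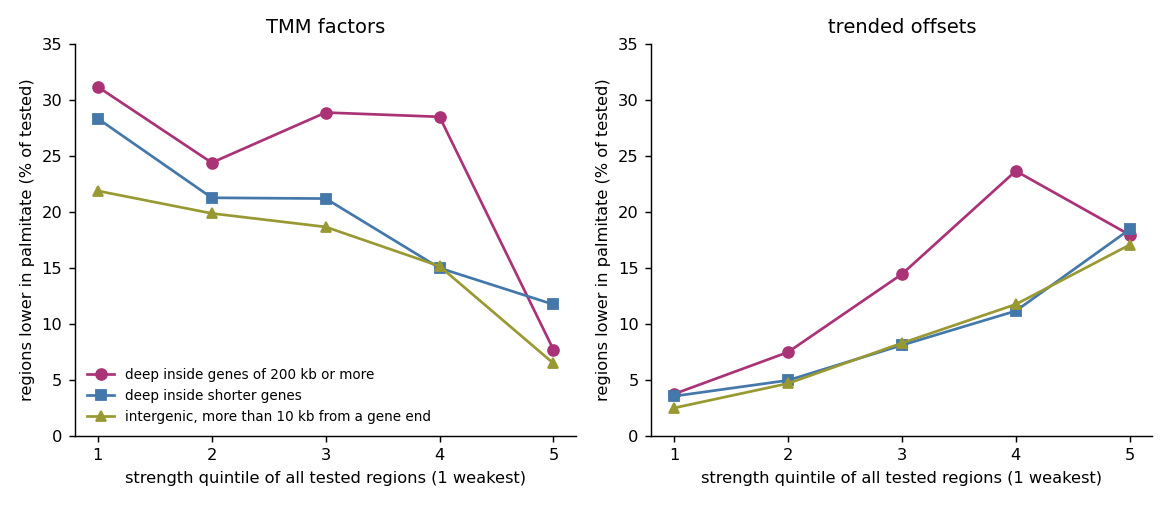
Percent of tested regions that were lower in palmitate (vertical axis) in each strength quintile of all tested regions, from the weakest (1) to the strongest (5), for members, regions deep inside shorter genes and remote intergenic regions. In quintile 4 the members stand at 28.5% with TMM factors and 23.7% with trended offsets, and the other groups between 11.2% and 15.2%.

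The share of lower members varied little with position in the gene. It was 25.1% at 10 to 25 kb from the nearest gene end, 27.7% at 25 to 50 kb, 28.6% at 50 to 100 kb and 28.4% beyond 100 kb. The share was 26.2% in spans of 200 to 300 kb, 28.2% in spans of 300 to 500 kb and 31.8% in longer ones, with medians of -0.39, -0.42 and -0.44. For the 1362 members whose host strand was known, it was 32.0% in the first 20% of the gene's length and 24.9% to 30.7% in the 4 later stretches of equal length. These shares are descriptions, and their differences were not tested. Just inside the length limit stand members of Pcbp3, Pbx3 and Dnah12 (spans of 200.3 to 201.2 kb; log2 fold changes -0.93, -1.51 and -0.76), and just outside it regions of Atp9b, Sergef and Morc1 (199.7 to 199.9 kb; -1.16, 0.40 and -0.72). Just inside the distance limit stand members of Nek11, Clybl and Tnrc6b (-0.81, -0.06 and -0.57), and just outside it regions of Iqgap2, Tbc1d32 and Dennd1b (-0.07, -0.04 and -0.61).

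Peak calls gave fewer such elements after palmitate. The authors' own peak lists held 1468, 2020 and 1957 peaks that meet the rule in Controls 1 to 3, against 1168, 1239 and 1266 in Palmitate 1 to 3. These were 6.57%, 7.52% and 7.22% of the control lists and 5.78%, 5.76% and 6.03% of the palmitate lists, so the groups do not overlap in number or share. The control lists were also longer as a whole, with 22359 to 27122 peaks against 20201 to 21502. Because every matrix region was in at least 2 lists, longer control lists favour regions open in control: 348 tested members were in control lists only and 31 in palmitate lists only. Among the 656 members in all 6 lists, 160 (24.4%) were lower and 17 (2.59%) higher, where all regions in 6 lists gave 6.98% and 18.9%. With trended offsets 92 of them were lower and 3 higher (14.0% and 0.457%), where all regions in 6 lists gave 4.21% and 1.92%.

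The losses with the smallest p are given first. The element inside Atxn1, which encodes the corepressor ataxin-1, had 69.3, 67.9 and 76.5 CPM in Controls 1 to 3, against 29.6, 29.2 and 33.0 in Palmitate 1 to 3 (chr13:45649211-45649761). The controls all lie above the palmitate libraries, and the log2 fold change was -1.22 ± 0.12 (SE; edgeR adjusted p 2.1e-07). At the element inside Foxn3, a forkhead repressor, the values were 49.7, 46.2 and 53.0 CPM in control and 23.3, 26.5 and 18 in palmitate (chr12:99326123-99326709). The groups are again apart, by -1.13 ± 0.15 (SE; edgeR adjusted p 4.19e-06). The element inside Runx2, a RUNX factor with roles in bone and in T cells, had 31.4, 27.0 and 30.6 CPM against 10.6, 11.9 and 9.97 (chr17:44536492-44536888). No control lies near a palmitate library there, and the change was -1.44 ± 0.20 (SE; edgeR adjusted p 5.86e-06). Inside Foxp1 an element went from 52.3, 50.6 and 45.2 CPM to 30.7, 21.7 and 23.0 (chr6:98992739-98993229), with no overlap and a change of -0.97 ± 0.15 on the log2 scale (SE; edgeR adjusted p 2.11e-05).

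Further losses of this rank lay inside Stk39, Maml2, Elmo1 and Sik3. The element inside Stk39, a kinase that regulates cation-chloride cotransporters, had 55.3, 38.3 and 51.0 CPM in control and 24.4, 18 and 21.1 in palmitate (chr2:68434570-68435060). Control 2 was the lowest control there and still lay above all palmitate libraries (log2 fold change -1.18 ± 0.16 SE; edgeR adjusted p 6.09e-06). The element inside Maml2, a coactivator of Notch, had 20.9, 10.6 and 17.7 CPM against 4.34, 4.76 and 2.30 (chr9:13639573-13639984), a change of -2.07 ± 0.32 (SE; edgeR adjusted p 2.45e-05). Control 2 was again the lowest control, and the groups did not overlap. The element inside Elmo1, a partner of DOCK proteins in activating Rac, was the deepest loss of the named ones, from 10.5, 4.99 and 7.48 CPM to 1.18, 0.68 and 0.383 (chr13:20256687-20256941; log2 fold change -3.25 ± 0.50 SE; edgeR adjusted p 2.6e-05). It was listed as a peak in 2 of 6 lists, the fewest of any tested member, so it is a weak element. With so few lists, an element can have entered the matrix through control lists alone, a choice that favours losses. The same limit holds for the Sik3 element, also in 2 lists. Among losses given later, that of Themis was in 2 lists and those of Rasgrf2, Sox5, Arhgap15 and Lpp (chr16:24659146-24659622) in 3. The limit applies to them too. The element inside Sik3, a salt-inducible kinase, was as weak and had 8.28, 9.32 and 9.18 CPM in control and 0.788, 2.04 and 1.15 in palmitate (chr9:46122451-46122734; -2.68 ± 0.41 SE; edgeR adjusted p 2.16e-05).

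The remaining 4 named losses are given as group means. Adk encodes adenosine kinase, and its element went from 88.5 ± 6.53 to 53.5 ± 4.34 CPM (SD, n = 3; chr14:21112730-21113215; log2 fold change -0.72). Gramd1b encodes a protein that moves cholesterol from the plasma membrane to the endoplasmic reticulum, and its element went from 73.8 ± 2.1 to 43.8 ± 4.36 CPM (n = 3; chr9:40343848-40344319; -0.76). The element inside Snx29, a sorting nexin, went from 41.2 ± 9.14 to 18.4 ± 3.08 CPM (n = 3; chr16:11475370-11475982; -1.15). That inside Rasgrf2, an exchange factor for Ras, went from 14.1 ± 2.2 to 3.69 ± 0.479 CPM (n = 3; chr13:91933744-91934131; -1.92). No library of one group overlapped the other at these 4 elements. All 12 named losses passed in every fit in which they were tested, 22 or 23 fits each, trended offsets included. They were chosen for their small p in these same libraries, so the refits are not independent evidence for them.

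Gains with the smallest p were small in fold and lay at strong elements. The 3 strongest members were all among them. The element over an internal start of Hdac4, a class IIa histone deacetylase, had 366, 360 and 374 CPM in control and 485, 457 and 476 in palmitate (chr1:92180219-92180994). The groups are far apart for their spread, yet the log2 fold change was only 0.37 ± 0.06 (SE; edgeR adjusted p 2.45e-05). At the internal start of Rps6ka2, a ribosomal S6 kinase, the values were 250, 249 and 262 CPM against 321, 317 and 329 (chr17:7169700-7170170; 0.34 ± 0.06 SE; edgeR adjusted p 0.000107). At that of Stag1, a cohesin subunit, they were 274, 272 and 298 against 356, 347 and 344 (chr9:100643070-100643799; 0.31 ± 0.06 SE; edgeR adjusted p 0.000324). With trended offsets these 3 had log2 fold changes of -0.01, 0.02 and -0.03 and none passed, so their direction rests on the scaling.

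Most other named gains also depended on the scaling. Chd9, a chromodomain helicase, and Cdyl, a chromodomain corepressor, had elements that rose from 153 ± 9.39 and 139 ± 17.8 CPM to 199.8 ± 9.66 and 175 ± 7.61 CPM, in this order (n = 3). An element at an internal start of Adk rose from 104 ± 9.33 to 131 ± 4.17 CPM (n = 3). Those of Arhgap26, Stard13 and Asap1, regulators of small GTPases, and the stronger of the higher Bach2 elements had log2 fold changes of 0.27 to 0.31. None of these 7 passed with trended offsets, where their values lay between -0.02 and 0.12. With TMM factors the Stard13 call was also lost without Control 2 (0.17; edgeR adjusted p 0.0745), the Bach2 call without Palmitate 1 (0.24; edgeR adjusted p 0.0527) and the Asap1 call without Control 1 (0.21; edgeR adjusted p 0.0924) or Palmitate 2 (0.25; edgeR adjusted p 0.0688).

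The exceptions were weak elements inside Acoxl and Sh3pxd2a. Acoxl encodes a protein related to acyl-CoA oxidases, and its element had 9.59, 7.65 and 15.0 CPM in control and 15.4, 47.9 and 15.7 in palmitate (chr2:128008668-128009329). Palmitate 2 alone sets its size, since the other palmitate libraries stand just above Control 3. The log2 fold change was 1.31 ± 0.31 (SE; edgeR adjusted p 0.00231), and without Palmitate 2 it was 0.53 and did not pass (edgeR adjusted p 0.195). Sh3pxd2a encodes a scaffold of podosomes, and its element had 4.36, 9.65 and 5.78 CPM in control and 13.8, 17.7 and 10.7 in palmitate (chr19:47446972-47447282). The groups do not overlap, with Control 2 the highest control, and the change was 1.06 ± 0.29 (SE; edgeR adjusted p 0.00649; 0.00274 with trended offsets). Without Palmitate 2 it was 0.86 and did not pass (edgeR adjusted p 0.0637).

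**Figure D3:**
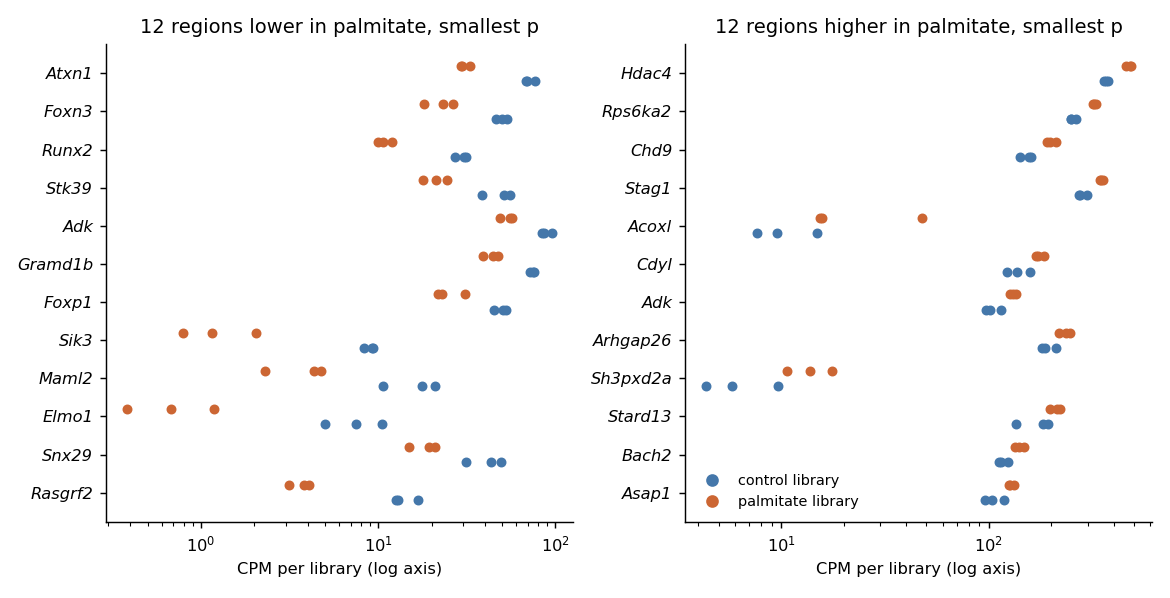
CPM in each library on a log axis for the 12 lower members (left) and 12 higher members (right) of smallest p, named by host gene, with controls in blue and palmitate libraries in orange. At all 24 elements the groups do not overlap, and the Acoxl element has a single palmitate library, at 47.9 CPM, far from the rest.

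Internal starts were counted separately from the other members, with no test of the difference. Of the 66 tested members over a RefSeq start, 10 were higher (15.2%, beside 11.9% over all tested regions) and 3 lower (4.55%, beside 12.7%), with a median log2 fold change of -0.07. Of the 1604 over none, 19 were higher and 464 lower, with a median of -0.43. With trended offsets 1 of the 66 was higher, in Rap1gap2, a GTPase-activating protein of Rap1, and 0 were lower (9 and 4 at an unadjusted p under 0.05). DESeq2 called 5 higher and 1 lower, and limma-voom 9 and 3. The 3 lower ones are the Dock2, Tbc1d5 and Dclk1 elements printed above, chosen for display after their values were seen. The Dock2 element had 24.0, 14.6 and 13.3 CPM in Controls 1 to 3, against 11.4, 8.49 and 4.98 in Palmitate 1 to 3, without overlap (-1.03 ± 0.28 SE; edgeR adjusted p 0.00628; 0.0872 with trended offsets).

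Base composition separated the windows under gains from those under losses as called with TMM factors. With trended offsets 1 of these members was higher and 0 were lower, so the contrast exists only with the first scaling. The 11 windows under higher members had a median GC content of 68.3% (64.3% to 78.0%) and a median of 32 CpG dinucleotides. The 4 windows under lower members had 44.3% (39.3% to 50.3%) and 1 CpG. The medians were 62.7% and 16.5 CpG for all 72 windows under tested members, and 60.3% and 14 for the 57 under members that did not pass. The median of all 32851 RefSeq windows was 52.7% and 7. The 11 windows lie under 10 members and the 4 under 3, as the Cdyl and Dock2 elements each hold overlapping windows. The KLF/SP motif was in 10 of the 11 windows under higher members and in 2 of the 4 under lower ones. It was in 66.7% of the windows under tested members and in 48.1% of all windows. The AP-1 motif was in 0 of 11, in 2 of 4, in 11.1% of the windows under tested members and in 7.81% of all windows. These matches describe letters in a window and not binding, and the sets are too small to compare. Of the 10 higher members over a start, 7 were in the strongest quintile of regions, and the 3 lower ones had control means of at most 17.3 CPM. GC content and strength thus moved together, and their parts were not tested.

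Of the 411 genes with a tested member, 245 had at least 1 lower element, 28 had at least 1 higher element and 161 had neither. A gene with more members has more occasions for a call of either kind. The counts of genes here were not adjusted for that or set beside other genes. With TMM factors 23 of the 28 genes with a higher element also held a lower one. With trended offsets 107 genes had a lower element and 21 a higher one, and 5 genes had both. With TMM factors, in Adk the internal start 23.5 kb from the start of the gene span was higher while the element 60.4 kb from it was lower. In Hdac4 the internal start 15.1 kb into the gene was higher, and an element 76.3 kb into it had 44.0, 31.9 and 45.9 CPM in control and 23.3, 19.4 and 13.4 in palmitate. Neither of these starts passed with trended offsets (0.11 in Adk and -0.01 in Hdac4 on the log2 scale), while both lower elements did. The lower Hdac4 element is lower in every palmitate library than in any control (chr1:92119098-92119751; log2 fold change -1.11 ± 0.18 SE; edgeR adjusted p 4.54e-05). In Dock2, a Rac activator of lymphocytes, an element 13.1 kb from the start was higher (4.79, 6.32 and 4.76 CPM in control, 9.46, 9.51 and 11.5 in palmitate), opposite to the internal noncoding start in the same gene, and it alone of the 2 passed with trended offsets.

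Among the 130 genes with at least 5 tested members, 17 had lower calls at 50% or more of them and 22 had none. Over all tested members 28.0% were lower, and whether these numbers of genes differ from what that share gives was not tested. Prkca led the first group, with 9 of 13 elements lower, all 13 below 0 and a median log2 fold change of -0.90. Its members summed to 266, 242 and 244 CPM in control and 145, 142 and 165 in palmitate, so the libraries of the groups are far apart. With trended offsets 6 of the 13 were lower. Elmo1 had 8 of 12 lower (sums of 178 ± 12.8 and 107 ± 5 CPM, n = 3), Lpp, a cytoskeletal adaptor, 6 of 12, Stk39 6 of 7, and Pcca, a subunit of propionyl-CoA carboxylase in mitochondria, 6 of 7. Trerf1, a transcriptional regulator, had 5 of 7 lower and Snd1, a nuclease and coactivator, 4 of 5. Trended offsets left fewer, with 2 lower in Elmo1, 3 in Lpp, 2 in Stk39, 3 in Pcca, 2 in Trerf1 and 1 in Snd1. Ptprk, Rptor, Dip2c and Ncoa1 had 3 lower each with TMM factors in edgeR and in limma-voom, and 2, 0, 0 and 2 in DESeq2. With trended offsets edgeR called 0 in each of these 4 genes (3, 2, 1 and 3 lower at an unadjusted p under 0.05). In Trerf1 the sums were 116, 72.5 and 94.9 CPM in control and 45.7, 43.5 and 45.2 in palmitate, wide in control and narrow in palmitate, without overlap.

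At the other extreme, Gse1, a component of a corepressor complex, had 15 tested elements of which 0 passed in edgeR, DESeq2 or limma-voom, and 2 were lower and 1 higher at an unadjusted p under 0.05 in edgeR. Their sums were 391, 376 and 404 CPM in control and 383, 399.9 and 403 in palmitate, so the groups overlap, and the median log2 fold change was 0.01. Tox, a regulator of T cell exhaustion, had 8 elements with 0 calls by these tools, and 3 were lower at an unadjusted p under 0.05 in edgeR. Its median of -0.40 was close to the -0.41 of all tested members, so the lack of calls does not set it apart in size of change. With trended offsets 1 of the 8 was higher. Pde4d, a cAMP phosphodiesterase, had 10 elements with 0 calls by these tools, a median of -0.19 and 1 lower at an unadjusted p under 0.05.

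The 6 genes with the most members are described in turn, beside the 28.0% lower of all tested members. Differences between these genes were not tested. Foxp1 held 41, of which 10 were lower and 0 higher in edgeR (19 and 0 at an unadjusted p under 0.05; 5 and 0 in DESeq2; 10 and 0 in limma-voom), and its sums were 1008, 1005 and 938 CPM in control and 847, 802 and 778 in palmitate. The groups do not overlap, but 31 of the elements did not pass, and the lower ones were spread from 36.4 to 571 kb from the start of the gene span. With trended offsets 6 were lower. Bach2 held 24, with 5 lower and 2 higher, and sums of 690.0, 715 and 666 CPM against 739, 668 and 687, which overlap. Its higher elements lay 19.8 and 49.7 kb from the start and its lower ones at 53.2, 81.6, 168, 186 and 307 kb, so with TMM factors an element that was higher and one that was lower stood next to each other. With trended offsets 2 were lower and 2 higher: the element at 53.2 kb did not pass (edgeR adjusted p 0.0601), nor did the gain at 19.8 kb (0.04), and an element at 149 kb was higher instead. The lower Bach2 element 81.6 kb into the gene had the largest change, from 11.6 to 4.14 CPM (-1.49 ± 0.31 SE; edgeR adjusted p 0.000716).

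Atxn1 held 21 elements, 5 lower and 0 higher in edgeR (10 and 0 at an unadjusted p under 0.05; 3 and 0 in DESeq2; 5 and 0 in limma-voom), with sums of 520, 477 and 511 CPM in control and 374, 359 and 380 in palmitate. With trended offsets 3 were lower. Its 3 lower elements of smallest p lay in 1 stretch, 99.7, 136 and 144 kb from the end of lower coordinate, with log2 fold changes of -1.22, -0.86 and -0.76. Inpp4b, a phosphoinositide phosphatase, held 18 (16 tested, 4 lower), and Wwox, an oxidoreductase at a fragile site, held 16 (5 lower). With trended offsets 0 elements of either passed in edgeR, where an unadjusted p under 0.05 was met by 3 lower and 1 higher in Inpp4b and by 0 lower and 3 higher in Wwox. Without such offsets DESeq2 called 1 lower in Inpp4b and 0 in Wwox, and limma-voom 4 and 6. Arhgef3, an exchange factor for small GTPases, held 17 and had 1 lower and 1 higher, the latter at an internal start. Its sums overlap (409 to 433 CPM in control, 415 to 444 in palmitate). With trended offsets neither the lower nor the higher Arhgef3 element passed (edgeR adjusted p 0.258 and 0.54).

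**Figure D4:**
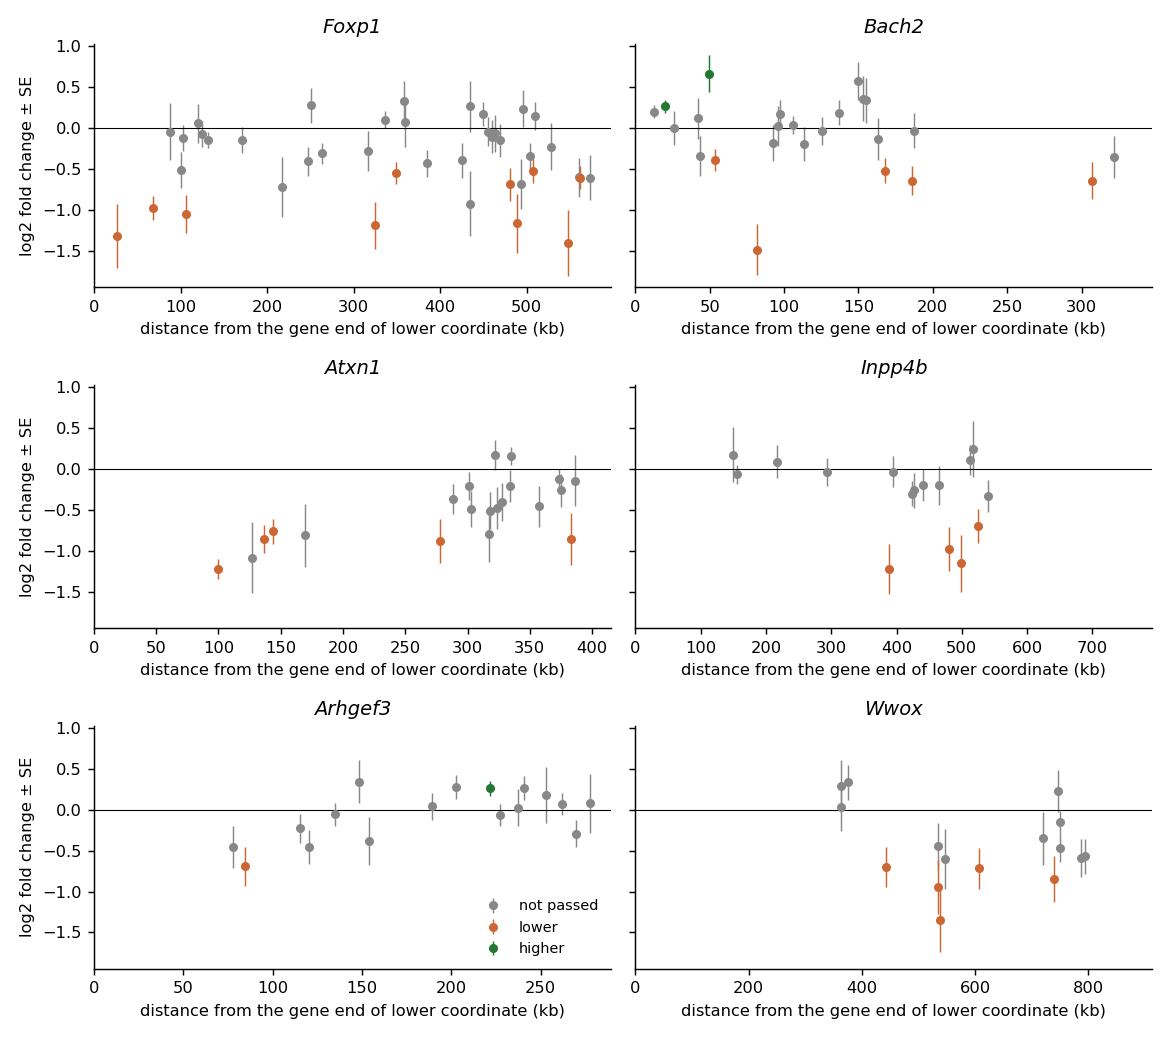
Log2 fold change ± SE of each tested member of the 6 genes with the most members, against its distance in kb from the gene end of lower coordinate; orange elements were lower, green higher and grey did not pass. All values are with TMM factors, with which Bach2 shows higher and lower elements side by side, and Foxp1 shows 10 lower elements among 31 that did not pass.

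Host genes were grouped by role, using lists written with earlier results of these data known. Each list is set beside the 28.0% lower and 1.74% higher of all tested members, or 9.70% and 1.32% with trended offsets. Transcription factor genes of T cells and development held 240 tested members, 68 lower (28.3%) and 4 higher, with a median log2 fold change of -0.40. With trended offsets 41 were lower (17.1%) and 5 higher. Besides Atxn1, Foxn3 and Runx2, the list holds Sox5, a SOX factor, whose element had 18.3, 10.3 and 19.0 CPM in control and 2.37, 5.44 and 4.22 in palmitate. The Sox5 groups do not overlap (chr6:144640284-144640858; -1.94 ± 0.32 SE; edgeR adjusted p 4.68e-05). The 4 higher elements lie in Bach2, which has 2, in Jazf1, a zinc finger cofactor, and in Nfia, a nuclear factor I protein. The Jazf1 element had 18.7, 9.65 and 12.2 CPM in control and 21.7, 25.5 and 18 in palmitate, so its groups overlap although it passed (edgeR adjusted p 0.0181).

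Genes of T cell receptor signalling, kinases and phosphatases held 130 tested members, 49 lower (37.7%) and 2 higher, with a median of -0.51. With trended offsets 11 were lower (8.46%, beside 9.70% of all tested members) and 1 was higher. Prkca supplied 4 of the elements of smallest p, and the first had 27.0, 29.3 and 33.3 CPM in control and 13.0, 9.85 and 15.0 in palmitate (chr11:108282857-108283300; -1.26 ± 0.20 SE; edgeR adjusted p 2.79e-05). All control libraries lie above all palmitate libraries there. Themis, which tunes T cell receptor signals in thymocytes, had an element at 8.28, 15.0 and 12.9 CPM in control and 5.12, 3.4 and 3.07 in palmitate (chr10:28776654-28777429). Its groups are apart as well, though at low counts (-1.66 ± 0.32 SE; edgeR adjusted p 0.000317). The 2 higher elements are those of Rps6ka2 and Prkce, another protein kinase C, which had 15.4, 30.9 and 16.5 CPM in palmitate, with Palmitate 2 far above the others, against 10.9 to 14.3 in control.

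Regulators of small GTPases, the cytoskeleton and adhesion held 209 tested members, 56 lower and 6 higher (16 and 2 with trended offsets). An Lpp element had 17.4, 19.6 and 16.0 CPM in control and 6.70, 6.46 and 4.6 in palmitate (chr16:24659146-24659622), with no overlap and a change of -1.57 ± 0.26 (SE; edgeR adjusted p 5.09e-05). Ptk2, the focal adhesion kinase, had an element with mean CPM of 24.2 ± 5.69 (control) and 9.92 ± 2 (palmitate; n = 3; -1.26; edgeR adjusted p 0.000156). Arhgap15, a Rac inhibitor, had one at 13.5 ± 1.8 and 3.9 ± 1.17 CPM (n = 3; -1.75; edgeR adjusted p 9.12e-05).

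Chromatin regulators held 63 tested members, 21 lower and 3 higher (7 and 0 with trended offsets in edgeR, 15 and 2 at an unadjusted p under 0.05; 10 and 3 in DESeq2; 20 and 3 in limma-voom), the higher ones being those of Hdac4, Chd9 and Stag1. Smyd3, a lysine methyltransferase, had an element at 51.0, 27.3 and 37.4 CPM in control and 21.7, 9.51 and 9.97 in palmitate (chr1:179492847-179493576). Both groups spread widely there, and the lowest control still lay above the highest palmitate library (-1.49 ± 0.23 SE; edgeR adjusted p 2.95e-05). Ncoa2, a nuclear receptor coactivator, and Arid1b, a subunit of BAF chromatin remodelling complexes, had elements that fell from 17.5 ± 1.85 to 7.74 ± 1.5 CPM and, for Arid1b, from 28.8 ± 1.87 to 15.6 ± 2.73 CPM (n = 3; edgeR adjusted p 0.000648 and 0.000793).

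Genes of lipid, fatty acid and energy metabolism held 115 tested members, 33 lower and 2 higher (14 and 2 with trended offsets), with a median of -0.42, close to that of all members. Prkag2, a regulatory subunit of AMP-activated protein kinase, had an element at 21.8, 21.0 and 23.8 CPM in control and 8.28, 9.85 and 9.20 in palmitate (chr5:24970955-24971463). Both groups were narrow and well apart (-1.28 ± 0.22 SE; edgeR adjusted p 7.95e-05). Cers6, a ceramide synthase that uses palmitoyl-CoA, had an element at 21.4, 18.6 and 17.7 CPM against 8.28, 8.83 and 7.29 (chr2:68915742-68916487), likewise without overlap (-1.23 ± 0.23 SE; edgeR adjusted p 0.000266). Mgat5, which branches N-glycans, and Pcca had elements that fell from 21.6 ± 1.93 to 9.88 ± 0.304 CPM and, for Pcca, from 27.5 ± 2.2 to 12.7 ± 4.28 CPM (n = 3; edgeR adjusted p 0.000279 and 0.0003). The 2 higher elements lie in Acoxl and in Sgms1, a sphingomyelin synthase (6.10, 3.99 and 5.10 CPM in control, 7.88, 10.9 and 8.05 in palmitate).

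The cyclic AMP pathway held 45 tested members, 8 lower (17.8%) and 0 higher, with a median of -0.16. At an unadjusted p under 0.05 edgeR had 11 lower and 2 higher, and DESeq2 and limma-voom each called 7 lower and 0 higher. Trended offsets gave 1 lower and 1 higher, the latter in Pde4b. The lower elements of smallest p lay in Rapgef4, an exchange factor for Rap that binds cyclic AMP, in Gnaq, a G protein alpha subunit, and in Pde4b, a phosphodiesterase. The Gnaq element of smallest p had 21.8, 13.6 and 23.5 CPM in control and 10.2, 10.2 and 7.67 in palmitate (chr19:16204861-16205396; -1.05 ± 0.24 SE; edgeR adjusted p 0.00184), and it was the 1 that passed with trended offsets. Genes best known from neurons and cell adhesion, such as Slit3, an axon guidance ligand, and Pard3, a polarity protein, held 53 tested members, 16 lower and 0 higher in edgeR. At an unadjusted p under 0.05 these were 28 and 0, and the calls were 8 and 0 in DESeq2 and 17 and 0 in limma-voom. Their elements were weak, with a median of 7.20 CPM, and their median change was -0.77 (-0.24 with trended offsets). Members in no role list gave 219 lower and 12 higher of 822 (26.6% and 1.46%), near the shares of all members.

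Within a gene, the interior was then set against the gene's own ends. Strength is not matched in this ratio: regions within 1 kb of gene ends had a median of 47.3 CPM, against 10.8 CPM for the members. Counts of interior regions more than 10 kb from any gene end were summed, as were those within 1 kb of the ends, and the ratio of the sums was tested by edgeR over all 1555 genes with both. The ratio was lower in palmitate in 123 of 234 genes of at least 200 kb and higher in 0 (1, Carmil1, at an unadjusted p under 0.05), with a median log2 change of -0.52. Over all genes 43.0% were lower and 0.707% higher, so 52.6% of long genes stands beside 41.3% of shorter ones. With trended offsets 42 long genes were lower (17.9%) and 1, Sdccag8, was higher, against 12.7% and 1.61% over all genes. Of shorter genes 11.7% were then lower. Long and shorter genes were not matched for the number of interior regions, and their shares were not tested against each other.

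Gnaq had the largest change of the named genes, with lower interior and higher end values in palmitate. Its 3 interior elements summed to 42.3, 34.3 and 45.6 CPM in control and 18.9, 16.6 and 16.9 in palmitate, and its end region had 40.5, 32.6 and 48.3 against 62.7, 75.4 and 59.8. The ratio of interior to ends was 1.04, 1.05 and 0.944 in control and 0.302, 0.221 and 0.282 in palmitate, with no overlap (log2 change -1.93 ± 0.21 SE; edgeR adjusted p 8.37e-08). In Snd1 the ratio was 0.184, 0.174 and 0.254 against 0.0795, 0.0498 and 0.0585 (-1.72 ± 0.19 SE; edgeR adjusted p 8.37e-08). In Phlpp1, a phosphatase of AKT, it was 0.210, 0.168 and 0.158 against 0.0857, 0.0724 and 0.0723 (-1.20 ± 0.15 SE; edgeR adjusted p 1.67e-06). All 3 genes also passed with trended offsets, as did Mllt3, a reader of acylated histones (-0.93 ± 0.13 SE; edgeR adjusted p 4.7e-06), while Zbtb20, a zinc finger repressor, did not (-1.08 with TMM, -0.23 and adjusted p 0.25 with trended offsets).

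The 5 long genes of smallest p for a rise of the ratio did not pass. Carmil1, a regulator of actin capping, had a log2 change of 0.59 ± 0.28 (SE; edgeR adjusted p 0.0826; 0.80 and adjusted p 0.0183 without Control 2, where it passed), and Chd9, Acaca, Patj and Rbms1 had 0.28 to 0.35 (adjusted p 0.104 to 0.328). Acaca encodes acetyl-CoA carboxylase, the enzyme that commits acetyl-CoA to fatty acid synthesis. Its interior element had 171, 156 and 207 CPM in control and 184, 193 and 148 in palmitate, and its ratio to the gene's end overlapped between groups (4.90, 3.84 and 5.80 against 6.59, 5.74 and 5.08).

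**Figure D5:**
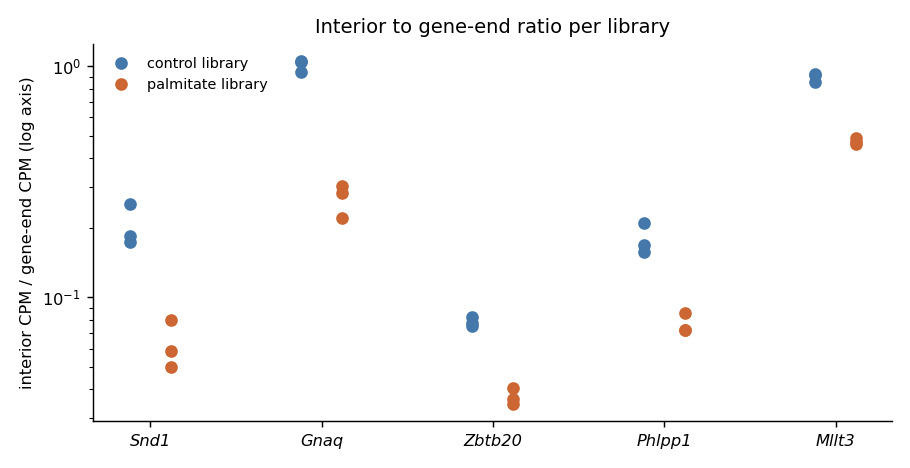
Ratio of interior CPM to gene-end CPM in each library, on a log axis, for the 5 long genes with the smallest p for a fall, with controls in blue and palmitate libraries in orange. The groups do not overlap in any of the 5 genes, and in Gnaq the ratio goes from 0.944 to 1.05 in control to 0.221 to 0.302 in palmitate.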

How the data were processed

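Whole-number raw counts of 6 ATAC-seq libraries in 24605 regions were used as deposited by the authors, with the peak score and position of each library's filtered peak list, also as deposited by the authors. The submitters' processing notes name MACS2 2.2.8, edgeR 3.40.2, Trim Galore 0.6.10, Picard 2.23.8 and Bowtie2 2.5.1, and mm10. How the regions were built, and whether reads were shifted to the Tn5 cut, is not given in the sources used here; a missing shift moves read positions by a few bases only.

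Regions were placed against RefSeq gene spans of GRCm38.p6, which carry no exons, so exonic and intronic members were not told apart. Starts came from RefSeq windows; 9 motifs were searched in them on both strands. Differences were tested over all regions in R 4.3.3 by edgeR 4.0.16 (quasi-likelihood F-test, two-sided; TMM factors; filterByExpr; Benjamini-Hochberg adjustment at 0.05), after tests on simulated data. CPM use TMM library sizes, and SE is the size of the log2 fold change over the square root of F. Trended offsets are a loess curve (span 0.3, pseudocount 0.5 reads) of log count on abundance. Alternatives were DESeq2 1.42.0, limma 3.58.1 (voom), other scalings, filters and limits, the replicate number as a block, and 1 library left out at a time. Trended offsets with a library left out or with the block, the trended ratios of summed counts, and members over no start were chosen after seeing the data.

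The members and gene lists were chosen with earlier results of these data known. Named were the 12 lower and 12 higher members of smallest p, the 3 strongest, the 6 genes with most members, for each role list those of smallest p, and the 5 long genes of smallest p for a fall and for a rise of the interior to gene-end ratio. Base counts of windows and the genes of many lower members were described in addition.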

Additional observations from a re-analysis of the deposited data

How the results depend on the processing

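Library totals, the 3 libraries per group and weak elements limit these results: the median region had 46 to 62 counts per library, and weak members can be called only for large changes. The count of lower members was 467 and that of higher members 29, with a median log2 fold change of -0.41. Total counts gave 623 lower and 12 higher members and a median of -0.53, where all tested regions gave 17.8% and 5.27%. Upper-quartile factors gave 529 lower, 17 higher and -0.47, where all tested regions gave 14.8% and 8.2%. Trended offsets gave 162 lower and a median of -0.15, and the DESeq2 Wald test 215 lower and 10 higher; the cause was not tested. Members in spans of at least 100 kb gave 910 lower, 60 higher and a median of -0.36, and those in spans of at least 400 kb 167 lower and 5 higher, as more or fewer regions meet the rule. Members in all 6 peak lists gave 160 lower, 17 higher and a median of -0.25, and members over no RefSeq start 19 higher. Leaving out 1 library gave 307 to 479 lower, 16 to 26 higher and medians from -0.45 to -0.36, with 307 without Control 3 and 308 without Palmitate 3, while higher members fell to 17 without Control 1, 19 without Control 3, 16 without Palmitate 2 and 17 without Palmitate 3. Over all tested regions 7.68% were lower without Control 3 and 7.82% without Palmitate 3, beside 12.7% with all libraries. Leaving out 1 library with trended offsets as well gave 61 to 217 lower, 6 to 59 higher and medians from -0.17 to -0.11. The difference in the share of counts, -0.749 percentage points, became -1.13 of the counts more than 1 kb from gene ends and -1.48 for spans of at least 100 kb, and lay from -0.79 to -0.70 without 1 library. Long genes with a changed interior to gene-end ratio numbered 123, 43 with trended offsets and 96 to 121 without 1 library.

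Replicate numbers did not pair the samples: same-numbered libraries correlated at 0.0004, -0.104 and -0.027 in their deviations from the group means. With the replicate number as a block, 432 members were lower and 24 higher, with a median of -0.41. The replicate block with trended offsets gave 153 lower and 20 higher, with a median of -0.15.

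Every reversal was of a higher member under trended offsets. Hdac4 went to -0.0075, Stag1 to -0.026 and Arhgap26 to -0.022, and with the replicate block as well to -0.0081, -0.026 and -0.019. The other reversals came with 1 library left out under trended offsets. With 1 library left out, under TMM factors and trended offsets together, values lay from -0.041 to 0.40 for Hdac4, from -0.056 to 0.38 for Stag1, from -0.092 to 0.34 for Arhgap26, from -0.0056 to 0.39 for Rps6ka2, from -0.018 to 0.36 for Asap1, from -0.091 to 0.45 for Stard13 and from -0.0083 to 0.31 for the higher Bach2 element.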
